A study of Mus musculus with 6 samples.

Results

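Transcription outside the annotated genes was examined in cultured satellite cells of the mouse, from which muscle fibres regenerate. The unannotated loci were the rows of the expression table whose identifier begins with XLOC_, and all 273 such rows were kept, of 27366 features in all. The rule used the identifier only and no expression value. The other 27093 features were Ensembl genes.

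The series holds 6 RNA-sequencing libraries. Of these, 3 carry the genotype label control and 3 the label Islr knockout, and all 6 were taken at day 4 of growth culture in medium with serum and basic FGF. The design text states that the cells were obtained by flow sorting on whether Islr, an immunoglobulin superfamily protein with leucine-rich repeats, was present. The sources used here do not give how the allele was deleted or with which Cre. Nor do they tie the libraries to separate animals or cultures, so every p-value below measures library-to-library spread that may be technical.

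An XLOC_ identifier is the kind of name given to a stretch of genome where a transcript assembler found aligned reads without a matching annotated gene. Such loci can be long noncoding RNAs, the upstream antisense partners of divergent promoters, extensions of known transcripts past their annotated end, RNA from enhancers, or single blocks of repeated sequence where reads pile up. In muscle the region upstream of Myod1, the gene of the myogenic master regulator MyoD, is known to give rise to noncoding RNA from its distal regulatory region. The assembler and annotation behind the loci are not named in the sources used here.

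No genome sequence was at hand from which to read the loci themselves. RefSeq, the NCBI gene catalogue, annotates some of them, and its table of promoter windows (GRCm38.p6, 250 bases before to 50 bases after a gene start, 32851 windows) touched 29 of the 273 loci, 19 of them on the locus's own strand. The 5 windows below belong to the 5 loci of highest mean level among those 19, and they are shown because they are the only letters at hand for loci described further on. The RefSeq start lay 394 bp from the assembled start of XLOC_002864, so that window lies inside the locus, and 10 to 65 bp from that of the other 4. The windows lie at chr1:151250491-151250790 (minus strand) for Gm46162, chr5:104571422-104571721 (plus) for Zfp33b, chrX:163958491-163958790 (plus) for Gm38561, chr7:51510937-51511236 (minus) for Gm33190 and chr7:46371153-46371452 (plus) for Gm45923. Each is written 5′ to 3′ on the strand of the RefSeq gene, and capitals mark the E-box motif CANNTG, the short palindrome bound by MyoD and its relatives, which reads the same on both strands.
Gm46162, window of XLOC_002864: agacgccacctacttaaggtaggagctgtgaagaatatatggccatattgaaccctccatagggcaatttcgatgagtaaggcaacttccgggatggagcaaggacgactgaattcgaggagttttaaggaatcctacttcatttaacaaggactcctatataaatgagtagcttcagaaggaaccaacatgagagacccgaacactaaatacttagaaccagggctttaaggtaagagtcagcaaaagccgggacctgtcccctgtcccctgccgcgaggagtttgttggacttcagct
Zfp33b, window of XLOC_034788: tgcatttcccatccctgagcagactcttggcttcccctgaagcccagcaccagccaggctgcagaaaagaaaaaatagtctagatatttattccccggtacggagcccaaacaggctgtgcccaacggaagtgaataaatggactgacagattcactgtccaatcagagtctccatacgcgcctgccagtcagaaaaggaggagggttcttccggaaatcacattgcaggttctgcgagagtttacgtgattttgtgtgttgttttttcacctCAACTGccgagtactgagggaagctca
Gm38561, window of XLOC_051328: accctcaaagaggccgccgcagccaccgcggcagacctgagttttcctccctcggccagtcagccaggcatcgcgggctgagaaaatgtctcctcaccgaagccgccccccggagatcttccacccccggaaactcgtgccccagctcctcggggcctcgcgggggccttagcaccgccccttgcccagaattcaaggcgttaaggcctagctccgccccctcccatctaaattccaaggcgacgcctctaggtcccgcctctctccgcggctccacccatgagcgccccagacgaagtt
Gm33190, window of XLOC_043292: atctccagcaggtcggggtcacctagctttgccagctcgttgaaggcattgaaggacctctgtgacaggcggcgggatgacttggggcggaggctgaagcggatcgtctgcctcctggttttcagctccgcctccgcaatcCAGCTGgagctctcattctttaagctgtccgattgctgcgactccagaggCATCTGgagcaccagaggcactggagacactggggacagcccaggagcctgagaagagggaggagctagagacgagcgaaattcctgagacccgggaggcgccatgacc
Gm45923, window of XLOC_041045: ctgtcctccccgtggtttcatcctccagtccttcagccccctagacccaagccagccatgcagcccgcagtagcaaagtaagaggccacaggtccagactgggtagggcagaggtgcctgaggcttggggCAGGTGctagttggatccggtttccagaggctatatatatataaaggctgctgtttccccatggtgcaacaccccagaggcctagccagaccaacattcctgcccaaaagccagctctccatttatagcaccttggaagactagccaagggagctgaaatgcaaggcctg

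CANNTG occurred once in the Zfp33b window, 2 times in that of Gm33190, once in that of Gm45923 and at no place in the windows of Gm46162 and Gm38561. Since 72.3% of all windows held at least 1 CANNTG, its presence set none of them apart. The letters TATAAA, the core of a TATA box, searched on the printed strand only, were found in the windows of Gm46162 and Gm45923 and in 8.32% of all windows. The window of Gm38561 held 25 CG dinucleotides and that of Gm33190 held 15, against a median of 7 over all windows, while that of Gm45923 held 3. Both CG-rich windows face the start of a coding gene at close range, as described below. Over the 19 same-strand loci the assembled start differed from the RefSeq start by a median of 32 bp, and in 13 of them by at most 100 bp.

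The loci were of 3 kinds. The first kind, 100 loci, had a strand and exons shorter than their span, so they held introns, with a median span of 4812 bp and a median exon length of 878 bp. The second kind, 16 loci, had a strand and exons that covered all or nearly all of the span, with a median span of 4970 bp. Exon lengths are estimates, and the line between these kinds is thin for some loci. XLOC_001865, with 4873 of 4911 bp in exons, fell in the second kind, and XLOC_006845, with 4494 of 4580 bp, in the first. The remaining 157 loci had no strand and were single blocks with a median span of 481 bp. The strand was plus for 66 and minus for 50 of the stranded loci.

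Spans ran from 201 to 141738 bp with a median of 1443 bp and quartiles of 414 and 4799 bp. The 3 longest were XLOC_050902 on chromosome X (109445428 to 109587165), XLOC_039028 on chromosome 6 (58724550 to 58780482) and XLOC_016567 on chromosome 15 (64520839 to 64572901), each of which overlapped a RefSeq gene (Gm34521, listed as protein-coding, and the long noncoding RNA genes Gm38822 and Gm30632). The 3 shortest were XLOC_003358, XLOC_017960 and XLOC_021788, all unstranded and with means between 0.880 and 2.69 scaled reads. Scaled reads are read counts after division by the size factor of the library.

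Every chromosome except the mitochondrial one held loci. Chromosome 4 held 22 loci, chromosome 6 held 18, and chromosomes 2, 5 and 17 held 16 each, while chromosome 14 held 5. Chromosome Y held 5 loci beside only 4 Ensembl genes of the table, and 1 locus lay on the unplaced scaffold GL456382.1, which held no gene of the table. Coordinates are on GRCm38, since 26948 of 27074 Ensembl genes found in the GENCODE M21 annotation had the same start and end there. None of the 273 loci overlapped a gene of the table, and none overlapped a GENCODE M21 gene. RefSeq was less sparing: 77 loci (28.2%) overlapped a RefSeq gene, and 196 overlapped none. A long noncoding RNA gene was overlapped by 42 loci, a protein-coding gene by 29 and a pseudogene by 6. Of these, 3 loci overlapped both a long noncoding and a protein-coding gene, and a further 3 loci overlapped only RefSeq records of other types.

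**Figure D1:**
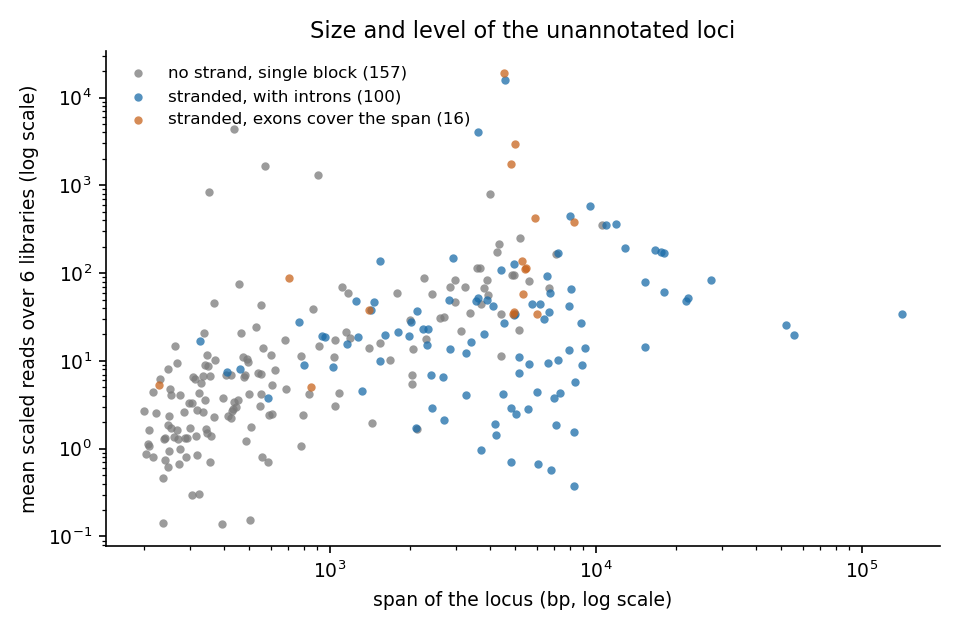
Span of each of the 273 loci in bp (x, log scale) against its mean scaled reads over 6 libraries (y, log scale), with 1 point per locus coloured by kind. Most unstranded blocks are short and low, but 4 blocks of 351 to 904 bp reach means of 831 to 4402.

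The median distance from a locus to the nearest annotated gene of the table, edge to edge, was 9109 bp (95% interval of the median from order statistics 6948 to 12239 bp, n = 272 loci with a gene on the same sequence). Within 1 kb lay 41 loci, from 1 to 5 kb 56, from 5 to 50 kb 113, and farther than 50 kb 62. The farthest was XLOC_053659 on chromosome Y, 4419275 bp from the pseudogene Gapdh-ps15, with 0 to 3 reads per library. The next farthest, XLOC_003745 on chromosome 10 (1576345 bp from Gpx4-ps2) and XLOC_054189 on chromosome Y (1407250 bp from Gapdh-ps15), had at most 7 reads in any library. Distances depended on the genes counted: to the nearest protein-coding gene the median was 20636 bp, and to the nearest gene of GENCODE M21 6693 bp. Another unannotated locus lay within 5 kb of 30 loci.

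Close loci were mostly divergent. Of the 30 stranded loci within 1 kb of a gene, 21 lay before the gene's start on the opposite strand, head to head with it, and 18 of these 21 neighbours were protein-coding. Of the 86 stranded loci farther away 16 had that arrangement, and the most frequent one there was after the gene's end on the same strand, with 29 loci. All 11 unstranded loci within 1 kb also lay before the gene's start. These counts describe where the assembler placed loci and were given no test.

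**Figure D2:**
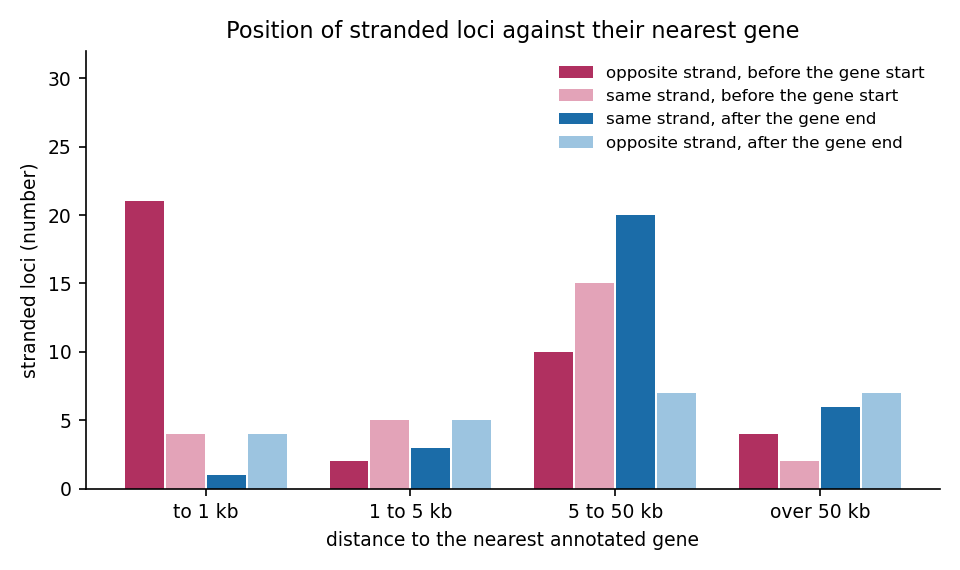
Number of stranded loci (y) by distance to the nearest annotated gene (x), split by side and strand relative to that gene. Within 1 kb the opposite-strand loci before the gene start number 21, against 4 on the same strand before the start.

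The nearest locus of all, XLOC_028981 (chr3:95818869-95819833, plus strand), began 6 bp from Rprd2 and had 21.1, 23.3 and 17.9 scaled reads in control 1 to 3 and 29.7, 13.8 and 7.53 in knockout 1 to 3. XLOC_043292 (chr7:51492928-51511022, minus), whose RefSeq counterpart is Gm33190, lay 7 bp from Ano5, a muscle gene of the anoctamin family. By the RefSeq coordinates XLOC_043292 also overlapped Ano5, and XLOC_028981 also overlapped Rprd2. The levels of XLOC_043292 were 173, 73.4 and 236 in control and 306, 60.9 and 156 in knockout. XLOC_028981 was lowest in knockout 3, whereas both libraries numbered 2 were the lowest for XLOC_043292. Ano5 itself was at 1694, 358 and 1561 in control and 3386, 652 and 1438 in knockout, so that gene too was lowest in both number 2 libraries. Whether gene and locus shared reads was not tested.

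XLOC_012679 on chromosome 13 lay 12 bp after Hist1h4m, a histone H4 gene, on the opposite strand, with levels from 21.7 to 59.0 that overlapped between the groups. XLOC_051328 (chrX:163958676-163976244, plus) lay 15 bp from Zrsr2, a splicing factor of the minor spliceosome. It had 159, 143 and 144 scaled reads in control and 231, 119 and 243 in knockout, and the groups overlapped. XLOC_023687 lay 65 bp from Lbx1, a homeobox gene of migrating limb muscle precursors, and XLOC_024433 lay 173 bp from Rbm20, the regulator of titin splicing. XLOC_023687 ranged from 12.6 to 44.5 and XLOC_024433 from 12.9 to 87.9, and for both the highest library was knockout 1. All head-to-head loci within 1 kb other than XLOC_021165, which is described below, had means of 9.05 to 173 scaled reads; among their partners were Cdkn2a, Nipbl and Selenoi.

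Reads were found in all 6 libraries for 166 loci and in a single library for 13. The median of the mean levels was 11.0 scaled reads: 250 loci had a mean of at least 1, 143 of at least 10, 35 of at least 100 and 8 of at least 1000. Per length, the median over loci of the mean FPKM (a level scaled for length and depth, as deposited) was 0.823, against 3.87 for the 17043 protein-coding genes and 0.0439 for the 1996 lincRNA genes of the table. Spliced loci had a median FPKM of 1.10 and unstranded blocks of 0.576. An assembler reports only loci that gather reads, so a comparison with annotated genes that may be silent here is of unlike lists.

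A few loci held most of the reads. XLOC_026990 (chr2:75638380-75642894, minus), whose exons cover its 4515 bp, lay 4998 bp before Gm13655, itself listed at 0 in 5 of the 6 libraries. It had 23391, 13433 and 4313 scaled reads in control 1, 2 and 3 and 28090, 17760 and 26423 in knockout 1, 2 and 3. XLOC_006845 (chr11:86811816-86816395, plus), a spliced locus 4070 bp from the start of the RNA helicase gene Dhx40 on the opposite strand, had 17064, 15477 and 4028 in control and 22076, 21124 and 14876 in knockout. In both loci control 3 was the lowest library, and in both the knockout library was above the control library of the same number for all 3 numbers. Dhx40 itself ran from 761 to 1122 and was high in control 3 and knockout 3, so the helicase gene did not have its neighbour's low value in control 3.

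These 2 loci together took 61.8, 56.7 and 20.96% of all locus reads in control 1, 2 and 3 and 63.3, 54.6 and 59.9% in knockout 1, 2 and 3. XLOC_023171 (chr19:4061382-4066369, plus), an unspliced stranded locus 1813 bp from Gstp3, a glutathione transferase gene with at most 4.61 scaled reads, had the same order within the controls. Its levels were 3688, 1823 and 730 in control and 4905, 3221 and 3174 in knockout. The groups overlapped in all 3 of these loci, because control 1 was above at least 1 knockout library.

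XLOC_021165 (chr17:34996726-35000354, minus) was the steadiest of the abundant loci. It lay 633 bp from the start of Vars, the valyl-tRNA synthetase gene, on the opposite strand and overlapped the RefSeq gene D17H6S56E-5. Its levels were 3677, 5126 and 3845 in control and 3324, 4312 and 4117 in knockout, a log2 fold change of -0.10 (SE 0.25, 95% interval -0.68 to 0.48, limma, n = 3 libraries per group). Vars ranged from 2815 to 8434, highest in control 2 like its neighbour but lowest in the libraries numbered 3, where the locus was not.

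Short unstranded blocks far from the genes of the table made up another abundant set. XLOC_031013 on chromosome 3 (5860337 to 5860775), 109042 bp from Gm8797, had 2625, 4358 and 4990 scaled reads in control and 3026, 8741 and 2672 in knockout. XLOC_023142 on chromosome 18, 101623 bp from its nearest gene in the table but overlapping the RefSeq long noncoding RNA gene Gm30821, had 915, 1785 and 1919 in control and 1185, 3821 and 468 in knockout. XLOC_040073 on chromosome 6 (3200767 to 3201670), 124072 bp from Gm43196 but 2256 bp from a RefSeq gene and 6199 bp from Gm2651 of GENCODE M21, had 270, 1459 and 2140 in control and 460, 2786 and 668 in knockout. All 3 were highest in knockout 2, and within control all 3 were lowest in library 1. XLOC_047137 on chromosome 8, a block of 351 bp that was named after its values were seen, had its highest level in knockout 2 as well (1593) and its lowest in control 1 (307). Per length XLOC_031013 was the most abundant locus named here, with a mean FPKM of 549, against 229 for XLOC_026990.

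Locus reads made up 0.350, 0.261 and 0.227% of all reads in control 1, 2 and 3 and 0.422, 0.388 and 0.409% in knockout 1, 2 and 3. The groups did not overlap: the mean was 0.279% ± 0.0635 (SD, n = 3) in control and 0.406% ± 0.0169 (SD, n = 3) in knockout, a difference of 0.127 percentage points. The two-sided exact permutation test gave p = 0.1, the smallest value that 3 against 3 libraries allow. Without the 5 loci of highest mean the shares were 0.0804, 0.0549 and 0.125% in control and 0.0946, 0.0875 and 0.105% in knockout, which overlapped (difference 0.00889 percentage points, exact permutation p = 0.7), and knockout 3 was then below control 3. The difference in share therefore rested on those 5 loci as a set, but not on each alike. XLOC_026990 alone held 0.125, 0.0687 and 0.0247% of all reads in control 1 to 3 and 0.150, 0.0969 and 0.157% in knockout 1 to 3. The limma log2 fold changes of the 5 were 1.09 for XLOC_026990, 0.90 for XLOC_006845, 1.12 for XLOC_023171, 0.10 for XLOC_031013 and -0.10 for XLOC_021165.

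**Figure D3:**
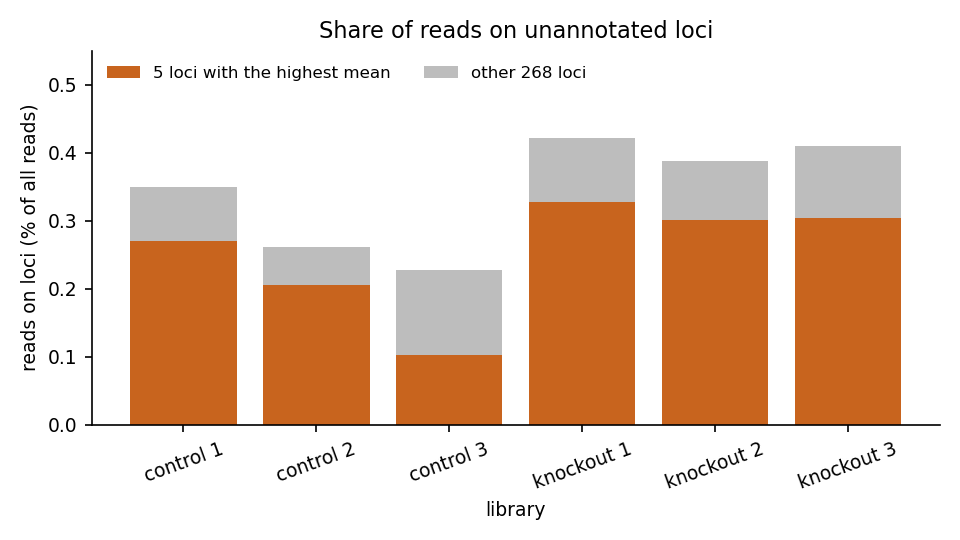
Percent of all reads that fell on unannotated loci (y) in each of the 6 libraries (x), stacked as the 5 loci of highest mean and all other loci. The full bars run from 0.227 to 0.350% in control and from 0.388 to 0.422% in knockout, and the grey part shows no such separation.

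Before any direction is read from the groups, the label check matters. Islr was at 181, 12.8 and 1579 scaled reads in control 1, 2 and 3 and at 257, 7.38 and 10.9 in knockout 1, 2 and 3, so Islr was higher in the library labelled knockout 1 than in control 1 or control 2. The column of control 1 is tied to its label by a number in which 2 digits are exchanged. Library totals ran from 16456917 to 20531276 reads. All 15 satellite and myogenic markers had reads in all 6 libraries, and their summed level was 496380, 78579 and 254430 in control and 472677, 74316 and 97647 in knockout. A few abundant genes carried much of that sum. Acta1, Myh3, Des and Myog were at 169682, 92418, 76325 and 43370 in control 1 and at 804, 226, 14090 and 417 in control 2. Pax7, Myf5 and Met of the same list were higher in control 2 (2729, 2254 and 8046) than in control 1 (1233, 1641 and 3569). Between knockout 2 and knockout 1 only Pax7 of these was higher in number 2. Summed endothelial markers ran from 274 to 592 in control and from 277 to 1338 in knockout, fibroblast markers from 1135 to 2868 and from 1827 to 4454, Schwann cell markers from 421 to 486 and from 472 to 1416, macrophage markers from 40.8 to 83.3 and from 52.5 to 291, and smooth muscle and pericyte markers from 11862 to 36385 and from 14168 to 18840. The endothelial, fibroblast, Schwann and macrophage sums were highest in knockout 2 and knockout 3, and in bulk RNA fewer cells of a type and less RNA per cell cannot be told apart. The part of these markers in the results on loci was not tested.

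No locus passed the test of knockout against control. Of 250 loci tested with limma 0 had a Benjamini-Hochberg adjusted p under 0.05 (background 0% of 20344 features), and the smallest adjusted p over loci was 0.999993. At an unadjusted p under 0.05 stood 6 loci higher in knockout (background 1.15%) and 3 lower (background 0.211%). edgeR and DESeq2 on whole reads called 0 loci too and gave 10 loci each at an unadjusted p under 0.05. The counts of 10 have no share over all features beside them, so they only describe the loci. Same-numbered libraries deviated together, and in the fit with the replicate number as a block 18 loci were higher (background 3.66%) and 4 lower (background 0.924%) at an unadjusted p under 0.05, again with 0 past the adjusted threshold. The authors' deposited table gives an adjusted p for 272 loci, of which 0 were under 0.05.

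All 3 knockout libraries were above all 3 control libraries in 10 loci (background 2.65%) and below them in 3 (background 2.11%). Within every replicate number the knockout library was higher in 35 loci (background 12.2%) and lower in 13 (background 12.1%). The median log2 fold change of the tested loci was 0.14, beside a median of 0.03 over all features tested. It was above 0 in 147 loci (58.8%, background 53.0% of all features tested) and not in 103. The loci's median within numbers 1, 2 and 3 was 0.04, 0.29 and 0.00, largest within number 2. The 16 stranded unspliced loci had a median of 0.37, the 139 unstranded blocks 0.17 and the 95 spliced loci 0.08.

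**Figure D4:**
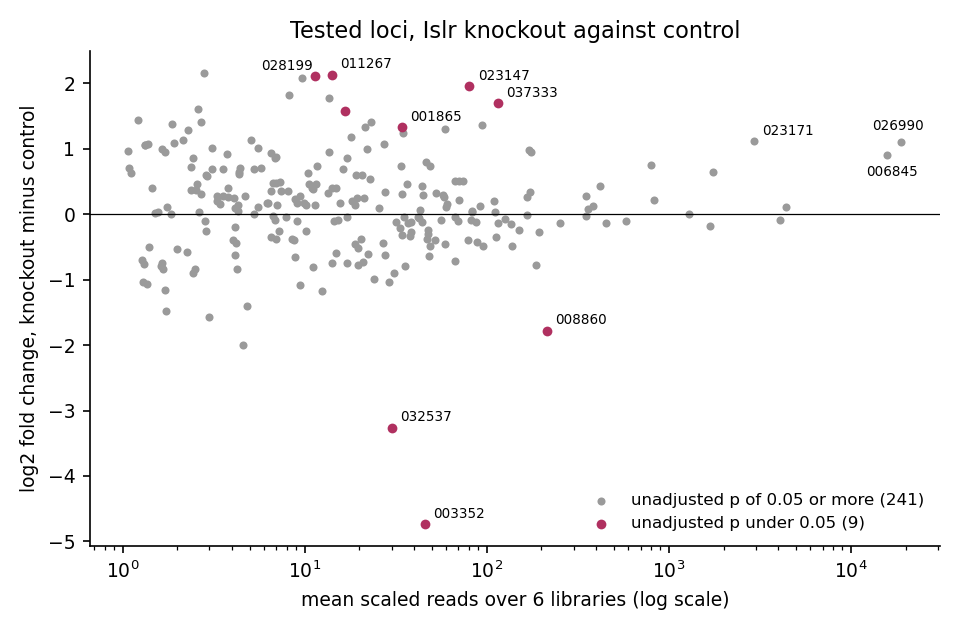
Log2 fold change of knockout minus control on the log2(scaled reads + 1) scale (y) against mean scaled reads (x, log scale) for the 250 tested loci, with the digits of named loci. The 9 red points have an unadjusted p under 0.05, and none of the 250 passed the adjusted threshold.

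XLOC_032537 (chr4:15236396-15242810, minus), 23021 bp before the start of Tmem64, had the smallest unadjusted p among loci with a mean of at least 10. It had 22.2, 87.4 and 47.7 scaled reads in control and 0, 4.61 and 19.3 in knockout, so the groups did not overlap. The log2 fold change was -3.26 (SE 1.07, 95% interval -5.70 to -0.82, limma, unadjusted p = 0.0146, adjusted p = 0.999993), and it was -2.12 without knockout 1. Tmem64, which encodes a membrane protein, ran from 2320 to 5614 with overlapping groups.

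XLOC_037333 (chr6:41196615-41202109, plus) lies inside the RefSeq record of the T cell receptor beta locus, Tcrb, although its nearest gene in the table was Try5, 109124 bp away. It had 64.4, 90.9 and 21.3 scaled reads in control and 130, 251 and 136 in knockout, without overlap, a log2 fold change of 1.69 (SE 0.58, limma, unadjusted p = 0.0183) that was 1.09 without control 3. Ptprc, the pan-leukocyte marker CD45, was at 0 in all 3 control libraries and at 1.14, 0 and 10.04 in knockout 1 to 3. Summed macrophage markers were at 83.3, 40.8 and 71.6 in control 1 to 3 and at 52.5, 102 and 291 in knockout 1 to 3. XLOC_037333 was highest in knockout 2, and a leukocyte source of its reads was not tested. XLOC_003352 on chromosome 1 (49555573 to 49555941), an unstranded block 621625 bp from the pseudogene Gm8391, had 159, 0 and 116 scaled reads in control and 0 in all 3 knockout libraries. Against a floor of 3 reads in each knockout library its control mean was at least 31.6-fold higher, but control 2 was at 0 as well, so the groups overlapped.

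XLOC_008860 (chr11:79872664-79876997), an unstranded locus 270 bp before 9130204K15Rik, had 330, 235 and 321 scaled reads in control and 309, 31.4 and 61.1 in knockout. Knockout 1 stayed within the control range and the other 2 knockout libraries were far below it. XLOC_023147 on chromosome 18, which overlaps RefSeq Gm41800 and lies 66001 bp before Dok6, had 25.6, 11.7 and 40.9 in control and 28.5, 97.8 and 278 in knockout, with knockout 1 again inside the control range. The log2 fold change of XLOC_008860 was -1.78 (SE 0.75, limma), -2.71 without knockout 1 and -1.08 without knockout 2, and that of XLOC_023147 was 1.95 (SE 0.83, limma) and 1.161 without knockout 3. Knockout 1 is the library whose Islr level was above that of control 1 and control 2, and the part of Islr in these values was not tested. In other named loci knockout 1 was outside the control range, as in XLOC_032537 (0) and XLOC_037333 (130).

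XLOC_011267 (chr12:108080051-108081459), 24972 bp after the histidine methyltransferase gene Setd3, had 3.33, 3.496 and 3.41 scaled reads in control and 6.85, 50.7 and 16.7 in knockout. XLOC_028199 on chromosome 2 (177251997 to 177256394), 8260 bp after Gm14409, had 1.11, 2.33 and 5.97 in control and 7.99, 9.23 and 41.8 in knockout. XLOC_001865 on chromosome 1 (25014832 to 25019742) had 32.2, 13.98 and 13.6 in control and 43.4, 38.7 and 63.6 in knockout. In these 3 loci every knockout library was above every control library, on 3 to 29 reads per control library in XLOC_011267 and XLOC_001865 and on 1 to 7 in XLOC_028199. Their log2 fold changes were 2.13 (SE 0.79), 2.11 (SE 0.84) and 1.32 (SE 0.55) by limma. That of XLOC_011267 was 1.42 without knockout 2, and that of XLOC_028199 was 1.39 without knockout 3. These 3 loci, like XLOC_032537 and XLOC_037333, were named for a small unadjusted p in this comparison. Groups without overlap therefore follow in part from the choice, and the limma adjusted p was 0.999993 for each.

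For the abundant loci the log2 fold change was 1.09 (SE 0.57, 95% interval -0.21 to 2.40) for XLOC_026990, 0.90 (SE 0.53, interval -0.31 to 2.11) for XLOC_006845 and 1.12 (SE 0.54, interval -0.12 to 2.35) for XLOC_023171, all by limma with n = 3 libraries per group. Each interval spans 0. The values rested largely on control 3, without which they were 0.41, 0.23 and 0.51, and without both libraries numbered 3 they were 0.33, 0.41 and 0.62.

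Among replicate numbers 24 loci differed, and most of them were lowest in the libraries numbered 2. What a number marks is not stated in the labels, so the numbers are used as labels only. A limma F test of the number, in a fit with the group, called these 24 of 250 loci (9.60%, background 6.35%). Of these 24 loci 15 were among the 95 spliced ones tested, 3 among the 16 stranded unspliced and 6 among the 139 unstranded. The mean over both groups was lowest in number 2 for 21 of the 24 (87.5%, against 52.1% of the 1291 features called), and both number 2 libraries were below the other 4 libraries in 19. The highest was number 1 for 18 loci and number 3 for 6, and number 2 for none. Since the F test chose these loci, a separation by number in itself follows from the choice. The counts of 19, 18 and 6 have no share over all features called beside them, so they only describe the 24 loci.

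The count depended on which libraries were kept. It was 9, 4 and 17 without control 1, 2 and 3, and 6, 25 and 23 without knockout 1, 2 and 3. Without both libraries of a number it was 21 for number 1, 8 for number 2 and 31 for number 3. None of these counts has a share over all features beside it, so they only describe the loci.

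**Figure D5:**
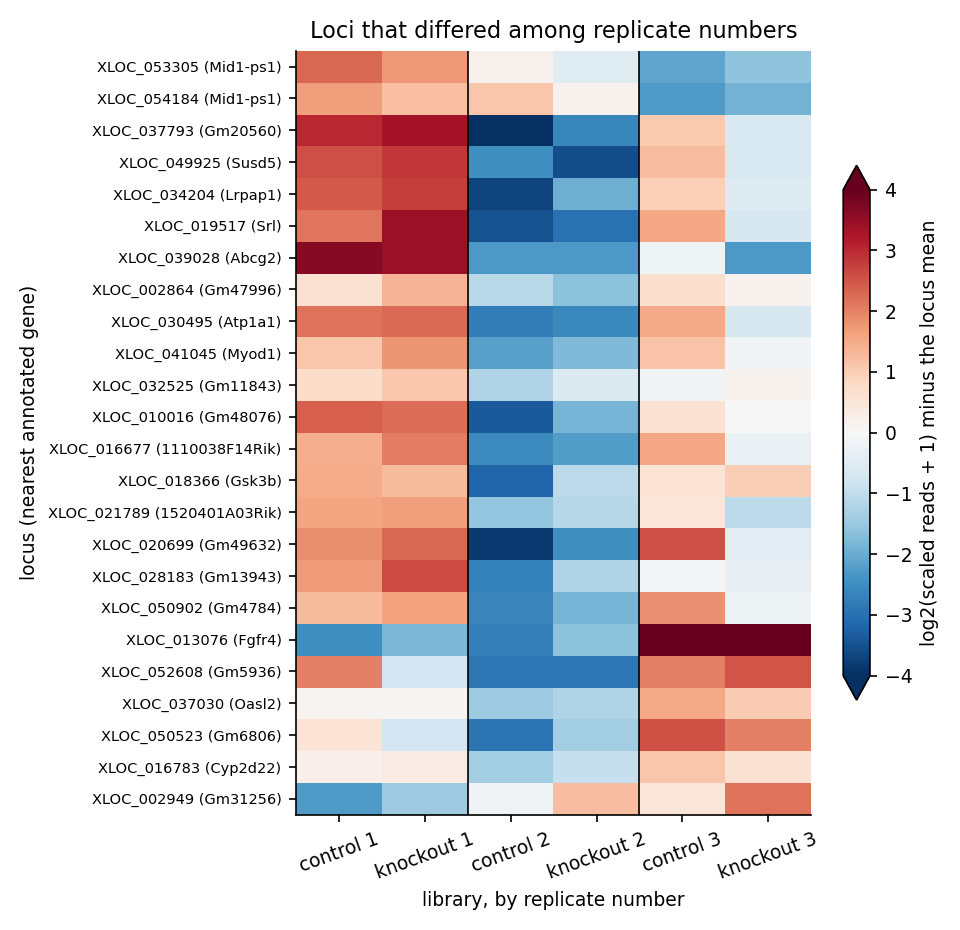
Log2(scaled reads + 1) minus the locus mean (colour) for the 24 loci called among replicate numbers (rows, with the nearest annotated gene) in the 6 libraries ordered by number (columns). The libraries numbered 2 are mostly blue, both below the other 4 in 19 rows, and the scale stops at 4 in either direction.

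XLOC_013076 (chr13:55184447-55189240, minus) had the smallest p of this test. It lay 15688 bp after Fgfr4, a fibroblast growth factor receptor gene of muscle precursors, on the opposite strand, and its exons cover its span. It had 45.6, 37.3 and 4882 scaled reads in control and 73.0, 82.1 and 5449 in knockout (limma F test adjusted p = 0.000335). The locus was thus high in both libraries numbered 3 and low in the other 4, at a log2 distance of 6.51 between the highest and lowest number. Fgfr4 was high in control 3 (3159) but at 469 in knockout 3, below control 1 (558) and control 2 (987), so gene and locus parted in knockout 3.

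XLOC_037793 (chr6:72993466-73005373, plus), a spliced locus 6670 bp before Gm20560 on the same strand, had 820, 4.66 and 210 in control and 1036, 15.7 and 66.1 in knockout (limma F test adjusted p = 0.00799). XLOC_034204 on chromosome 5 (35166255 to 35170668) had 238, 2.33 and 82.7 in control and 294, 10.2 and 29.3 in knockout. XLOC_049925 on chromosome 9 (114101614 to 114104214), 2886 bp after Susd5, had 68.9, 1.17 and 26.4 in control and 82.1, 0 and 6.70 in knockout. All 3 had the order number 1, number 3, number 2 within both groups.

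XLOC_019517 (chr16:4470734-4474326), an unstranded locus 5890 bp after Srl, the gene of the sarcoplasmic reticulum protein sarcalumenin, had 162, 2.33 and 106 in control and 392, 3.69 and 22.6 in knockout. Srl was at 12594, 404 and 4723 in control and 18036, 478 and 1849 in knockout and differed among numbers as well (limma F test adjusted p = 0.00520). Gene and locus had the same order of libraries within each group.

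XLOC_002864 (chr1:151241404-151250934, minus), which RefSeq names Gm46162, had 714, 214 and 729 scaled reads in control and 1184, 149 and 515 in knockout, lowest in both number 2 libraries (limma F test adjusted p = 0.0156). XLOC_034788 (chr5:104571662-104584613, plus), the RefSeq gene Zfp33b, varied less. It had 239, 155 and 245 in control and 197, 154 and 169 in knockout, and it was not among the 24.

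XLOC_041045 (chr7:46371391-46376343, plus) ended 131 bp before the start of Myod1 on the same strand, and RefSeq names it Gm45923. It was the only locus within 10 kb of a gene on the marker lists or of Islr, Sparc or Mapk3. It had 178, 17.5 and 182 scaled reads in control and 280, 23.1 and 76.2 in knockout (limma F test adjusted p = 0.0185), lowest in both number 2 libraries. Myod1 did not have this order: it was at 24224, 33818 and 32136 in control and 20943, 24544 and 18888 in knockout, highest in number 2 within each group (limma F test adjusted p = 0.532). Between knockout and control the locus had a log2 fold change of -0.07 (SE 1.17, limma), with overlapping groups.

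Myog, the late myogenic regulator myogenin, was at 43370, 417 and 43261 in control and 37228, 1998 and 5737 in knockout, and Acta1, skeletal alpha-actin, at 169682, 804 and 54466 and at 149412, 5220 and 14254. Both differentiation genes were lowest in number 2 within each group, as were 21 of the 24 loci by the mean of their number. Neither gene passed the test among numbers (limma F test adjusted p = 0.157 and 0.113). Other genes of the myogenic list had another order. Pax7 was at 1233, 2729 and 1634 in control and 1558, 1667 and 1319 in knockout, highest in number 2 within each group. Myf5 and Met were highest in control 2 (2254 and 8046) within control, but not in knockout 2 within knockout. Of the 15 myogenic markers Des and Itga7 passed it. Of the other lists Ly6a, Pecam1, Emcn, Cspg4, Myh11 and Rgs5 passed it. Their part in the result on loci was not tested.

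A pair of loci on chromosome Y, XLOC_053305 and XLOC_054184, differed in another way. XLOC_053305 (90736807 to 90739718, plus), 13339 bp before the pseudogene Mid1-ps1, had 416, 94.4 and 18.8 in control and 282, 60.0 and 26.8 in knockout. XLOC_054184, 48 bp after Mid1-ps1, had 80.0, 53.6 and 4.26 in control and 57.0, 27.7 and 5.86 in knockout. Both were lowest in number 3, where Mid1-ps1 was at 0 and 0.837 after 507 and 904 in control 1 and 2 and 820 and 538 in knockout 1 and 2. Xist, a lincRNA gene of chromosome X, was at 10251, 15527 and 5789 in control and 21953, 6008 and 7426 in knockout. Whether the reads of the 2 loci came from chromosome Y or from like sequence elsewhere was not tested, so they are not read as a mark of sex.

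A locus and its nearest gene mostly had different highest libraries, and so did annotated neighbours. The library with the highest level was the same for locus and nearest annotated gene in 46 of 249 pairs (18.5%, exact binomial 95% interval 13.9 to 23.9%), against 24.5% of 20091 annotated genes and their nearest annotated neighbour. Among loci within 1 kb it was the same in 11 of 38 (28.9%), against 26.0% of annotated genes within 1 kb of a neighbour, and among loci farther than 50 kb in 9 of 63 (14.3%). These shares describe the same 6 libraries and carry no test. Loci and genes also differed in where they were highest. Control 1 was the highest library for 17.2% of loci and 10.3% of genes, and control 2 for 16.4% and 21.1%. The part of this difference, and of annotated genes that overlap their neighbour, in the 24.5% was not tested. Low counts blur the highest library, and the interval covers counting error only.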

How the data were processed

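The main table, deposited by the authors, gives for each feature and library a signal and an FPKM, per the file headers. The deposited signal values are whole multiples of 1 step per library, so they are read counts over a size factor. A second table holds raw counts, per the file headers. The main table also carries the authors' comparison as a log2 fold change with its p-value, raw and adjusted, per the file headers. The tools in the submitters' processing notes are edgeR 3.18.1, DESeq2 1.16.1, HTSeq, HISAT2 2.0.5 and Trimmomatic, whose roles are not stated. The sources used here do not give whether counting used strand, and reads of a locus and of an antisense gene may not be separated. The table lost 36 damaged lines that held overflow of long annotation cells. A further 6 per-sample columns were left out.

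Members and lists were chosen with earlier results of these data known. Whole reads were recovered from the scaled values: 100% of 164196 values were whole within 0.01, and all 480 features in both tables had equal counts. Exon length came from reads and FPKM. The test was limma 3.58.1 (trend, robust) on log2(scaled reads + 1) over the 20344 features whose mean reached 1 scaled read, with two-sided p-values, Benjamini-Hochberg adjustment and a threshold of 0.05. The remaining 23 loci were below that mean and were not tested. Such fold changes understate changes of low features. edgeR 4.0.16 and DESeq2 1.42.0 on whole reads, other pseudocounts, filters and scalings, and fits without each library were alternatives. Fits on simulated counts were checked first. Replicate numbers pair the libraries by the data, not by the labels. Deviations from group means correlated at 0.689, 0.633 and 0.625 between same-numbered libraries over 14280 features. Other pairs correlated at -0.513 to -0.245. Since deviations cancel out within each group, these negative values largely follow from the positive ones.

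Named loci were the 8 of highest mean, the 8 and 6 of smallest unadjusted p (mean of at least 10) between genotypes and among numbers, the 3 longest, shortest, nearest and farthest, and those within 10 kb of a listed gene. Other loci named were chosen after their values were seen. Positions were compared with GENCODE M21 and RefSeq (GRCm38.p6). Figures were drawn with matplotlib 3.10.9.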

Additional observations from a re-analysis of the deposited data

How the results depend on the processing

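The count of 0 loci called between knockout and control held under all 20 alternatives, the replicate block included. With the limma block the median log2 fold change of the loci is 0.14 by construction, since each number holds 1 library per group. With edgeR and the block the median log2 fold change of the loci was 0.11. Over all alternatives that median ran from 0.04 to 0.29. The mean difference in read share within replicate numbers, the paired value, equals the unpaired 0.127 percentage points by arithmetic. Its exact sign-flip permutation p was 0.25, the smallest 3 pairs allow. Leaving out 1 library gave differences of 0.101 to 0.162. The 24 loci called among replicate numbers became 14 with a pseudocount of 0.1, 48 with no filter other than 1 read, 39 with DESeq2, 4 to 25 without 1 library and, in an alternative chosen after seeing the data, 8 without both libraries of number 2; the cause was not tested. These counts of called loci have neither the number of loci tested nor the share of all features called beside them. Their rises and falls cannot be told from a change over the whole table. The median distance was 20636 bp to protein-coding genes and 6693 bp to GENCODE M21 genes, which follows from the genes counted.

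Of 320 log2 fold changes of named loci under the alternatives 17 changed sign and 0 passed the threshold. Without 1 library the value ran from -1.39 to 2.93 for XLOC_013076, -0.19 to 0.050 for XLOC_021165, -0.97 to 0.54 for XLOC_023142, -0.44 to 0.42 for XLOC_031013 and -0.90 to 0.60 for XLOC_040073. XLOC_023142 was at 0.24 with edgeR, 0.25 with DESeq2 and 0.73 without both libraries of number 3. XLOC_040073 was at -0.37 without both libraries of number 1 and -0.46 without those of number 2, and XLOC_031013 at -0.35 without those of number 2. The median locus had 11.0 scaled reads, and 13 loci had reads in 1 library only, which limits the precision of their values.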
